A study of Bos taurus with 20 samples.

Results

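The genes of the matrix metalloproteinases (MMP), of the ADAMTS proteinases, and of their tissue inhibitors (TIMP) were followed in the cells of the bovine ovarian follicle. Members were chosen by name alone, as every gene on the array whose symbol starts with MMP, ADAMTS, or TIMP followed by a digit. This gave 39 genes of 22550 (17 MMP, 18 ADAMTS, and 4 TIMP genes). Expression was measured on 20 custom bovine microarrays, 4 biological replicates each of theca (TH), mural granulosa (GC), and cumulus (CC) cells, of CC after in vitro maturation (IVM) for 4 h, and of oocytes. All came from antral follicles of 3 to 6 mm of cattle (Bos taurus) ovaries collected at slaughter, with no treatment of the animals stated, and no age or breed given. TH, GC, CC, and oocytes were labelled immature and were taken directly. CC after IVM were detached from their complexes after the culture. TH were scraped from the follicle wall, so that other cells of the wall can be in these samples.

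MMPs and ADAMTS proteinases are zinc enzymes that cut proteins of the extracellular matrix. Most are made as inactive proenzymes, and TIMPs bind active MMPs and block them. Collagenases (MMP1, MMP8, and MMP13) cut fibrillar collagens, gelatinases (MMP2 and MMP9) cut denatured collagen and basement membrane collagen, and the membrane-type enzymes (MMP14, MMP15, MMP17, MMP24, and MMP25) act at the cell surface. Some ADAMTS enzymes (ADAMTS1, ADAMTS4, ADAMTS5, ADAMTS8, ADAMTS9, and ADAMTS15) cut aggregating proteoglycans such as versican, whereas ADAMTS2, ADAMTS3, and ADAMTS14 trim procollagens. In the ovary, these enzymes are known for remodelling the follicle wall at ovulation and the matrix that forms between CC around the oocyte.

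Values are given as log2 of the background-subtracted signal minus the 75th percentile of the array, so that 0 is that percentile and each unit is a doubling. They compare a gene between samples and not 1 gene with another. A gene is called above background in a group where 3 or more of the 4 arrays marked a probe of it as such. The share of probes well above background was 54.2 to 68.8% on 19 of the arrays and 49.3% on oocyte replicate 2. Markers went with the labels, with 5 of 6 theca markers highest in TH and 7 of 7 oocyte markers highest in oocytes. The 6 granulosa markers were highest in CC (4) or in CC after IVM (2), and all 6 were above background in GC. The median of all genes differed by -0.22 between TH and GC, by -0.16 between CC and GC, by -0.40 between oocytes and CC, and by 0.37 between CC after IVM and CC. Among genes above background in CC or in CC after IVM, that last median was 0.01, and counts are also given for the members above background.

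The 39 genes were read by 98 probes of 60 bases with 80 different sequences. A pair of probes covered 30 genes, 8 genes had 4 probes, and ADAMTS17 had 6. In 11 of 40 transcripts, the probes of the transcript overlapped by at least 12 bases. The probes of ADAMTS1 shared 42 of 60 bases, those of MMP9 shared 48, and those of MMP19 shared 30. The overlap was 59 bases for ADAMTS7, 52 for MMP13, 46 for ADAMTS3, 40 for ADAMTS8 and TIMP4, and 30 for ADAMTS2 and ADAMTS19. For all these genes the probes are not separate readings of the transcript. Probe sequences from the array files are shown for members that the results turn on, 5′ to 3′. Those shown have an open reading frame over their whole length, but not every such probe of these genes is shown. MMP11 probe 2 and MMP1 probes 3 and 4 are among those left out. Each printed probe is given with its transcript on the UMD 3.1 build. No base is in capitals because no part of the printed probes is shared with another probe of the gene. The printed probes stand for inhibitors that differed both between cell types and after IVM (TIMP1 at chrX:91232235-91236073 and TIMP2 at chr19:54079297-54131052). They also stand for the membrane-bound enzymes of TH (MMP14 at chr10:21806054-21814533 and MMP23B at chr16:52260743-52263073). Others stand for a member above background on 4 oocyte arrays and no CC array (ADAMTS18 at chr18:4559081-4703601) and for the collagenase that was higher after IVM (MMP1, the transcript at chr15:6124135-6132776). The last stands for a gene whose probes went opposite ways between oocytes and CC (MMP11 at chr17:73216822-73220883).
TIMP1 probe 1: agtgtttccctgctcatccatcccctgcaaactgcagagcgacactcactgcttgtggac
TIMP1 probe 2: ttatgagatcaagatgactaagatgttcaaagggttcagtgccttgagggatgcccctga
TIMP2 probe 2: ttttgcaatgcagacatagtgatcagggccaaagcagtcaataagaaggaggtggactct
MMP14 probe 2: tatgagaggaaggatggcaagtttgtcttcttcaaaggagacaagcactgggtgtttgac
MMP23B probe 1: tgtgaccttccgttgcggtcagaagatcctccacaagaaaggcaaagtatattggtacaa
ADAMTS18 probe 2: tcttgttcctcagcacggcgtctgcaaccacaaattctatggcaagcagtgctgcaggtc
MMP1 probe 1: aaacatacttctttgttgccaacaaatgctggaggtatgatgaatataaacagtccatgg
MMP1 probe 2: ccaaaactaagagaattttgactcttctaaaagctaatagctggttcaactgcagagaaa
MMP11 probe 1: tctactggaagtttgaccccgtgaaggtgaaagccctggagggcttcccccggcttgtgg

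Of the 39 genes, 26 were above background in at least 1 group, namely 10 MMP, 12 ADAMTS, and all 4 TIMP genes. In all 5 groups, 12 genes were above background. TH had 21 such genes, GC 19, CC 20, CC after IVM 18, and oocytes 17. The 13 genes above background in no group were MMP3, MMP7, MMP8, MMP13, MMP20, MMP24, MMP27, ADAMTS2, ADAMTS8, ADAMTS13, ADAMTS14, ADAMTS15, and ADAMTS16. Of these, MMP3, MMP7, MMP20, and MMP27 had no such probe on all 20 arrays. The cluster chr15:5912037-6400322 holds 7 MMP genes (MMP1, MMP3, MMP7, MMP8, MMP13, MMP20, and MMP27), of which 6 were above background in no group and MMP1 was above background in CC and after IVM. ADAMTS1 and ADAMTS5, which lie next to each other at chr1:8811792-8963815, were both above background in TH, ADAMTS5 by its probe 2 alone. ADAMTS8 and ADAMTS15, neighbours at chr29:37098498-37165575, were above background in no group.

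**Figure D1:**
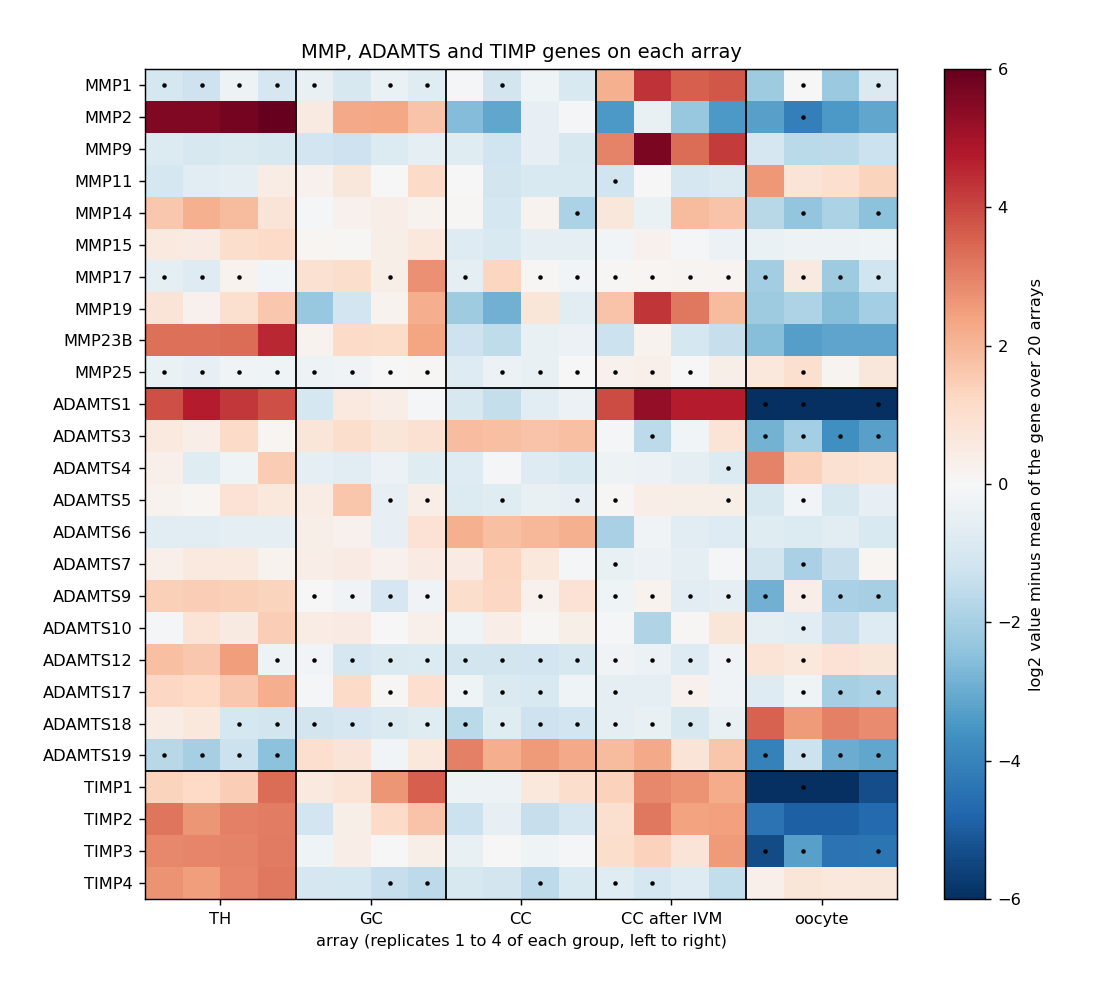
Log2 value of each of the 26 genes above background in at least 1 group (rows) on each of the 20 arrays (columns), as the difference from the mean of the gene over all arrays. The colour scale ends at -6 and 6, dots mark arrays on which no probe of the gene was well above background, and the darkest red lies in TH (MMP2, ADAMTS1) and in CC after IVM (MMP9, ADAMTS1).

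Over the 4 cell types taken directly, 27 of the 39 genes differed by limma's F-test, against 71.3% of all genes on the array. Among the 26 genes above background in a group it was 24, against 88.7% of all such genes. Of these 24 genes, 13 had their highest mean in TH (MMP2, MMP14, MMP15, MMP19, MMP23B, ADAMTS1, ADAMTS9, ADAMTS10, ADAMTS12, ADAMTS17, TIMP2, TIMP3, and TIMP4). The highest mean was in GC for 3 genes (MMP17, ADAMTS5, and TIMP1), in CC for 4 (ADAMTS3, ADAMTS6, ADAMTS7, and ADAMTS19), and in oocytes for 4 (MMP11, MMP25, ADAMTS4, and ADAMTS18). The shares over all genes by highest cell type are not reported here, so this split is not a result about the members. Not every highest mean differed from the next. ADAMTS5 had means of -5.29 in GC and -5.31 in TH, a difference of -0.02 that did not pass the test (adjusted p = 0.968). That value blends 2 probes that went opposite ways. In a fit of single probes, probe 2 was called higher in TH, by 1.18, and was above background on 4 TH and 2 GC arrays. Probe 1 was lower in TH, was not called, and was above background on no TH array and 1 GC array. ADAMTS10 also blends 2 probes that ranked the cell types differently. Its place among the genes highest in TH came from probe 2, which was above background on 1 TH array only. The mean of ADAMTS10 probe 1 was highest in GC (-2.34), followed by CC (-2.61) and then TH (-2.77).

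Pairs of cells that do not adjoin were fitted in the same model. TH and CC differed in 15 of the 39 genes, 12 higher and 3 lower in TH, against 31.8% of all genes (14.4% higher and 17.4% lower), and in 14 of the 26 genes above background (11 higher and 3 lower), against 40.6%. TH and oocytes differed in 24 genes, 20 higher and 4 lower in TH, against 64.6% of all genes (32.1% higher and 32.5% lower), and in 21 of the 26 (17 higher and 4 lower), against 80.4%. GC and oocytes differed in 29 genes, 24 higher and 5 lower in GC, against 68.6% of all genes (37.9% higher and 30.7% lower), and in 22 of the 26 (17 higher and 5 lower), against 80.1% (40.7% higher and 39.5% lower). These comparisons share their arrays with those described next.

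The comparison of TH with GC sets the vascular outer layer of the follicle wall against the layer that lines it. Of the 39 genes, 14 were called, 11 higher and 3 lower in TH, against 26.3% of all genes (11.8% higher and 14.5% lower). Among the 26 genes above background in a group, 12 were called, 10 higher and 2 lower, against 33.7% of such genes (15.2% higher and 18.5% lower). The median difference of the 39 genes was 0.01, beside -0.22 over all genes. By role, those higher were 3 of 4 TIMP genes, 2 of 5 membrane-type MMPs (MMP14 and MMP15), the gelatinase MMP2, MMP23B, the proteoglycan-cutting ADAMTS1 and ADAMTS9, ADAMTS12, and the procollagen enzyme ADAMTS2. ADAMTS2 was above background on only 2 TH arrays, so no fold is given for it.

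MMP2, gelatinase A, was at 3.61, 3.65, 3.83, and 4.19 on the 4 TH arrays. On the GC arrays, the value of MMP2 was -1.38, 0.33, 0.41, and -0.21, and on the CC arrays -4.54, -5.04, -2.41, and -2.0. The lowest TH array was above the highest GC array, and the GC arrays were all above the CC arrays. Oocytes had -5.20, -6.02, -5.40, and -5.07, with replicate 2 not above background. MMP2 was higher in TH than in GC by 4.03 (SE 0.58, adjusted p = 8.64e-05), a 16.3-fold difference. MMP14, the membrane enzyme that activates the MMP2 proenzyme, followed the same order of cell types, with -2.24 ± 0.60 (SD, n = 4) in TH and -3.64 ± 0.20 in GC. The difference of MMP14 was 1.40 (SE 0.41, adjusted p = 0.0191). MMP15, another transmembrane MMP, was higher in TH by 0.54 (SE 0.18, adjusted p = 0.0426). The call of MMP14 was lost without TH replicate 2 (1.22), TH replicate 3 (1.31), or GC replicate 1 (1.31). That of MMP15 was lost without any of TH replicates 3 and 4, GC replicates 1 to 3, CC replicates 1, 3, and 4, and oocyte replicates 3 and 4 (differences of 0.43 to 0.57). MMP23B, a membrane-anchored MMP known from reproductive tissues, was at 2.61, 2.59, 2.64, and 3.83 in TH and at -0.51, 0.45, 0.40, and 1.66 in GC, so that its groups did not overlap either. The difference of MMP23B was 2.42 (SE 0.42, adjusted p = 4.30e-04).

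ADAMTS1 was at 4.90, 5.74, 5.29, and 4.93 on the TH arrays and at -0.03, 1.64, 1.45, and 0.94 on the GC arrays. CC had 0.08, -0.38, 0.40, and 0.70, which overlapped with GC and lay far below TH. ADAMTS1 was 18.6-fold higher in TH than in GC, a log2 difference of 4.21 (SE 0.41, adjusted p = 1.71e-06). ADAMTS9, which also cuts versican, was above background on all 4 TH arrays and on no GC array. Its mean was -4.61 ± 0.05 in TH and -6.39 ± 0.45 in GC (adjusted p = 0.0145), which amounts to at least 1.34-fold. ADAMTS12, which is known to cut a cartilage matrix protein, was above background on 3 TH arrays and no GC array, with TH above GC by at least 1.31-fold (adjusted p = 0.00132). A fold written as "at least" sets the mean of the brighter group against, for each array of the dimmer group, the lowest signal still above background or the measured value if that was higher. With the normexp background correction, which models the spot and its local background, the differences of ADAMTS12 (0.06), ADAMTS9 (0.01), MMP14 (0.58), and MMP15 (0.39) did not pass. That of ADAMTS12 also did not pass with the deposited log2 table (0.43) or on slide 2 alone (1.92), and that of ADAMTS9 on slide 1 alone (1.57). ADAMTS17, with -4.43 ± 0.46 in TH and -5.45 ± 0.65 in GC, did not pass (adjusted p = 0.0794).

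Of the inhibitors, TIMP4 was at -1.22 ± 0.27 in TH and at -5.29 ± 0.27 in GC, where only 2 arrays measured it above background. The difference of TIMP4 was 4.08 (SE 0.20, adjusted p = 3.25e-09). TIMP3, the inhibitor that is held in the matrix, was at -0.16, -0.09, -0.03, and 0.09 in TH and at -3.30, -2.64, -2.99, and -2.67 in GC. The difference of TIMP3 between TH and GC was 2.86 (SE 0.32, adjusted p = 6.31e-06). TIMP2, which inhibits MMP2 and also takes part in its activation with MMP14, was at 6.15, 5.59, 5.96, and 6.01 in TH. In GC the values of TIMP2 spread from 1.76 to 4.63 (1.76, 3.31, 4.09, and 4.63), all below TH, and the difference was 2.48 (SE 0.44, adjusted p = 5.77e-04). TIMP1, by contrast, had 1.72, 1.60, 1.89, and 3.76 in TH and 0.97, 1.24, 3.02, and 3.99 in GC. The TH range lay within that of GC, and the difference was -0.06 (SE 0.65, adjusted p = 0.957).

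Higher in GC than in TH were ADAMTS19 and ADAMTS6. ADAMTS19, whose substrates are little known, was above background on all GC arrays (-4.04, -4.26, -5.19, and -4.40) and on no TH array, and was at least 1.76-fold lower in TH (adjusted p = 0.00102). ADAMTS6 differed by -0.82 (SE 0.22, adjusted p = 0.0109). The third gene called lower in TH, ADAMTS14, was above background on only 1 TH array and no GC array, so no fold is given. With the arrays of each slide taken alone (2 against 2 arrays per slide), 8 genes were called on slide 1 and 8 on slide 2. The shares over all genes at that setting are not reported here, so these counts are not a result about the members. Markers of vessel wall cells and of leukocytes moved with the same comparison. The summed level of 6 endothelial markers (log2 of the sum of their linear values) was 1.46 to 2.52 in TH and -2.51 to -1.20 in GC, with 5 of the 6 above background in TH. Of 6 smooth muscle and pericyte markers, all 6 were highest in TH, with summed levels of 7.77 to 7.94 against 3.17 to 4.65 in GC. For 6 leukocyte markers the sums were 1.57 to 2.28 and -2.20 to 0.47, and PTPRC, the pan-leukocyte marker, was above background on 4 TH arrays and no GC array. The 4 red blood cell markers overlapped, with 3.56 to 4.57 in TH and 3.86 to 4.87 in GC. The part of these cells in the theca values was not tested, and in such bulk samples fewer cells of a type and less RNA per cell cannot be told apart.

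**Figure D2:**
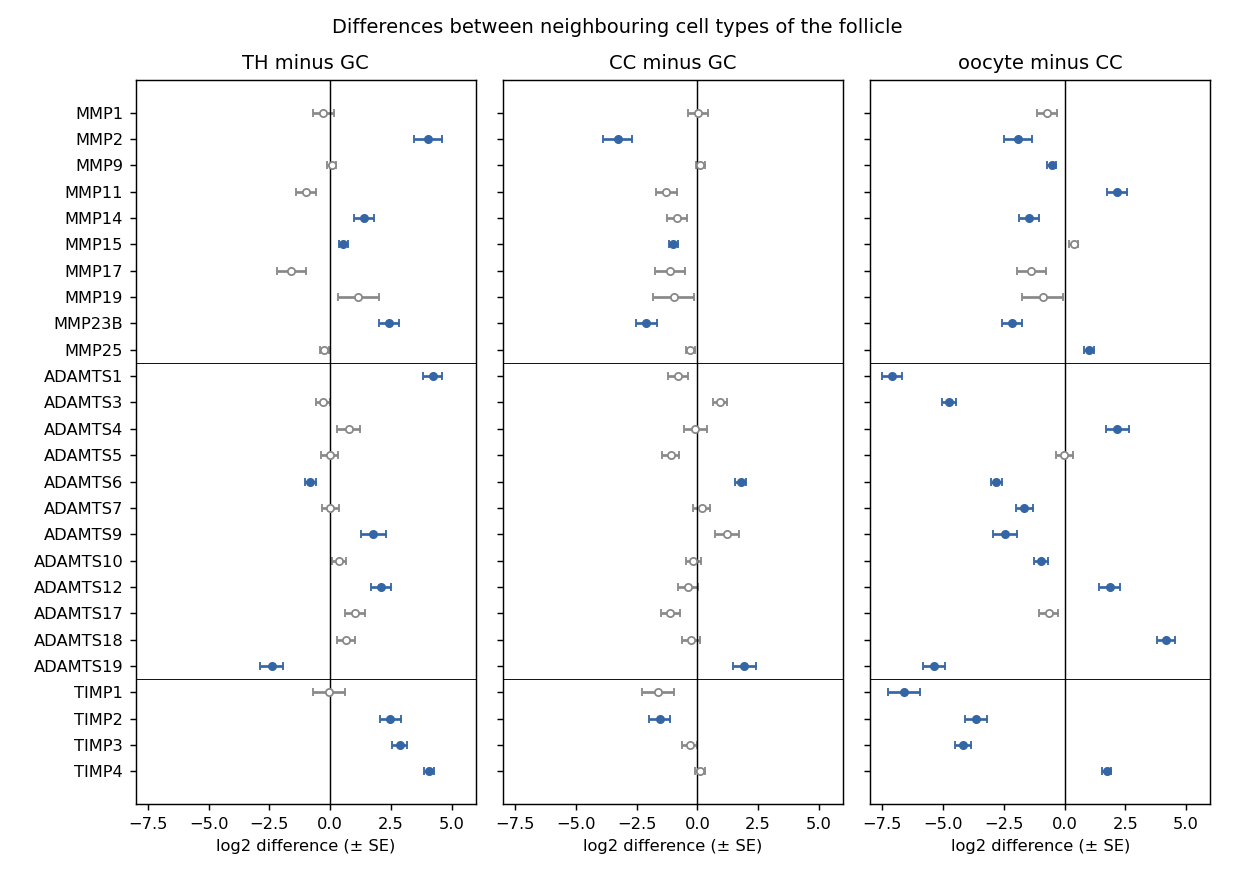
Log2 difference (± standard error) of the 26 genes above background in at least 1 group between TH and GC, CC and GC, and oocytes and CC. Filled points passed the adjusted p threshold of 0.05, 12 in the left panel, 6 in the middle panel, and 20 in the right panel.

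CC and GC are the cells around the oocyte and the cells along the wall of the same follicle. They differed in 6 of the 39 genes, 2 higher and 4 lower in CC, against 9.88% of all genes (5.27% higher and 4.61% lower). All 6 were above background, where the share over the array was 12.8% (6.85% higher and 5.93% lower). The 2 genes higher in CC were ADAMTS6 and ADAMTS19, and the 4 lower were MMP2, MMP15, MMP23B, and TIMP2. ADAMTS6, an enzyme known from fibrillin microfibrils and heart development, was at -0.05, -0.38, -0.21, and -0.06 in CC, above every GC array (-1.85, -1.96, -2.70, and -1.33). The difference of ADAMTS6 was 1.78 (SE 0.22, adjusted p = 1.10e-04), or 3.45-fold. On the CC arrays, ADAMTS19 was at -2.03, -2.87, -2.48, and -2.76, again with no overlap with GC, and the difference was 1.93 (SE 0.46, adjusted p = 0.0144). MMP2 was 9.76-fold lower in CC, a log2 difference of -3.29 (SE 0.58, adjusted p = 0.00193). MMP23B was at -1.93, -2.24, -1.16, and -1.07 in CC and differed by -2.10 (SE 0.42, adjusted p = 0.00436).

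The other 2 differences between CC and GC were smaller. TIMP2 was at 1.63, 2.43, 1.56, and 1.94 in CC, where GC replicate 1 lay inside the CC range, and differed by -1.56 (SE 0.44, adjusted p = 0.0368). MMP15 differed by -0.99 (SE 0.18, adjusted p = 0.00284). ADAMTS1 (-0.80, adjusted p = 0.278), TIMP1 (-1.63, adjusted p = 0.149), and TIMP3 (-0.31, adjusted p = 0.629) did not pass the test. ADAMTS3 had -2.45 ± 0.07 in CC and -3.38 ± 0.17 in GC and missed it narrowly (adjusted p = 0.0578). With the arrays of each slide alone, 2 genes were called on slide 1 and 2 on slide 2, again without the share over all genes beside them. The call of TIMP2 was lost without GC replicate 2 (difference -1.60), without GC replicate 3 (-1.34), without GC replicate 4 (-1.16), and without CC replicate 1 (-1.47), 3 (-1.45), or 4 (-1.57), and without oocyte replicate 4 (-1.56), and that of ADAMTS19 without GC replicate 3 (1.70) and with normexp (0.70). Smooth muscle and pericyte markers moved with the 4 genes lower in CC, all of which had their highest mean in TH. The summed level of these markers was 3.17 to 4.65 in GC and 1.65 to 2.27 in CC. That of the 6 theca markers overlapped, with 4.70 to 6.65 in GC and 4.61 to 4.98 in CC. Overlap was also seen for the endothelial markers (-2.51 to -1.20 in GC and -2.84 to -2.38 in CC) and the leukocyte markers (-2.20 to 0.47 and -2.36 to -0.53). The part of such cells in the result was not tested.

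Between oocytes and CC, 22 of the 39 genes were called, 6 higher and 16 lower in oocytes, against 63.7% of all genes (31.8% higher and 32% lower). Among the 26 genes above background, it was 20, 6 higher and 14 lower, against 79.4% of such genes (40.5% higher and 38.9% lower). The median difference of the 39 genes was -0.73, beside -0.40 over all genes. Lower in oocytes were 3 of the 4 TIMP genes, both gelatinases, MMP14, MMP23B, and 7 ADAMTS genes above background. Oocyte replicate 2 had the fewest probes above background, and without it 33 of the 39 genes were called, 6 higher and 27 lower, against 80.7% of all genes. The split also moved with the background correction. It was 1 higher and 34 lower with normexp, where 88.5% of all genes were called, and 5 higher and 30 lower with the deposited table, where 87.6% of all genes were.

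On the oocyte arrays the values of ADAMTS1 were -8.01, -6.26, -6.82, and -6.53, with only replicate 3 above background, and the difference from CC was -7.11 (SE 0.41, adjusted p = 3.29e-10). TIMP1 was at 0.09, 0.08, 1.05, and 1.46 in CC and at -6.51, -6.15, -6.12, and -4.95 in oocytes, where replicate 2 was not above background. No oocyte array came near a CC array, and the difference of TIMP1 was -6.60 (SE 0.65, adjusted p = 2.11e-07). TIMP3 was at -3.45, -3.03, -3.26, and -3.10 in CC and at -8.38, -6.31, -7.46, and -7.40 in oocytes, above background there on 1 array, with a difference of -4.18 (SE 0.32, adjusted p = 8.67e-09). TIMP2 was above background on all oocyte arrays (-1.47, -1.94, -1.94, and -1.71) and was 12.6-fold lower than in CC, a log2 difference of -3.66 (SE 0.44, adjusted p = 2.20e-06). ADAMTS3, a procollagen N-proteinase that also processes a lymphatic growth factor, was above background on all CC arrays and no oocyte array, and was at least 11-fold lower (adjusted p = 6.86e-10). ADAMTS19 was likewise on no oocyte array above background and at least 10.3-fold lower than in CC (adjusted p = 4.11e-08). ADAMTS6 was above background in oocytes, at -2.93, -3.02, -2.87, and -3.13, and 7.02-fold lower than in CC, a log2 difference of -2.81 (SE 0.22, adjusted p = 1.26e-08).

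Smaller differences in the same direction were those of MMP23B (-2.15), MMP2 (-1.92), ADAMTS7 (-1.65), MMP14 (-1.45), ADAMTS10 (-0.97), and MMP9 (-0.54), with adjusted p from 2.83e-04 to 0.0264. ADAMTS9 was at least 1.65-fold lower (adjusted p = 4.20e-04). The call of MMP9 was lost without CC replicate 1 (-0.49) or 3 (-0.42) and without oocyte replicate 2 (-0.45) or 3 (-0.47).

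The genes higher in oocytes than in CC were ADAMTS18, ADAMTS4, MMP11, ADAMTS12, TIMP4, and MMP25. ADAMTS18, an ADAMTS with few known substrates, was above background on all 4 oocyte arrays, on 2 TH arrays, and on no array of GC, CC, or CC after IVM. Its mean was -3.30 ± 0.41 (SD, n = 4) in oocytes, at least 4.33-fold above CC (adjusted p = 4.93e-08). TIMP4 was at -3.45 ± 0.18 in oocytes and at -5.18 ± 0.29 in CC, a difference of 1.73 (SE 0.20, adjusted p = 9.73e-07). TH was above oocytes for TIMP4 by 2.24 (SE 0.20, adjusted p = 4.73e-08). ADAMTS4, which cuts aggrecan and versican, was at -3.52 ± 0.99 in oocytes and -5.69 ± 0.36 in CC, with a difference of 2.17 (SE 0.47, adjusted p = 7.79e-04). MMP25, a membrane-anchored MMP known from neutrophils, was above background on 3 oocyte arrays and 1 CC array and differed by 1.01 (SE 0.19, adjusted p = 2.17e-04). That value blends 2 sequences and stands for neither. Probe 2 of MMP25 was at -4.57 ± 0.78 in oocytes and -6.80 ± 0.95 in CC. Probe 1 was at -7.98 ± 1.27 and -7.34 ± 0.33, above background on no array of either, and 1 of the 4 spots was called. ADAMTS12 was at least 1.1-fold higher in oocytes, where 3 arrays were above background (adjusted p = 0.001). With normexp background correction, the direction turned for MMP25 (-0.95) and ADAMTS12 (-0.72), and the calls of ADAMTS4 (0.11), TIMP4 (0.07), and MMP11 (0.29) were lost. With the deposited log2 table, the direction turned for MMP25 (-0.23), and the call of ADAMTS12 was lost (0.10). Single markers of other cells were also higher in oocytes than in CC. The summed level of the leukocyte markers was 3.49 to 3.80 in oocytes and -2.36 to -0.53 in CC, with CSF1R at 3.70 ± 0.14 and -3.25 ± 1.10, while PTPRC and ITGAM were above background on no array of either. That of the endothelial markers was 1.55 to 2.16 in oocytes and -2.84 to -2.38 in CC, with TEK at 1.33 ± 0.13 and -3.71 ± 0.26, while CDH5 was above background on no array of either. Their part in the result was not tested.

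**Figure D3:**
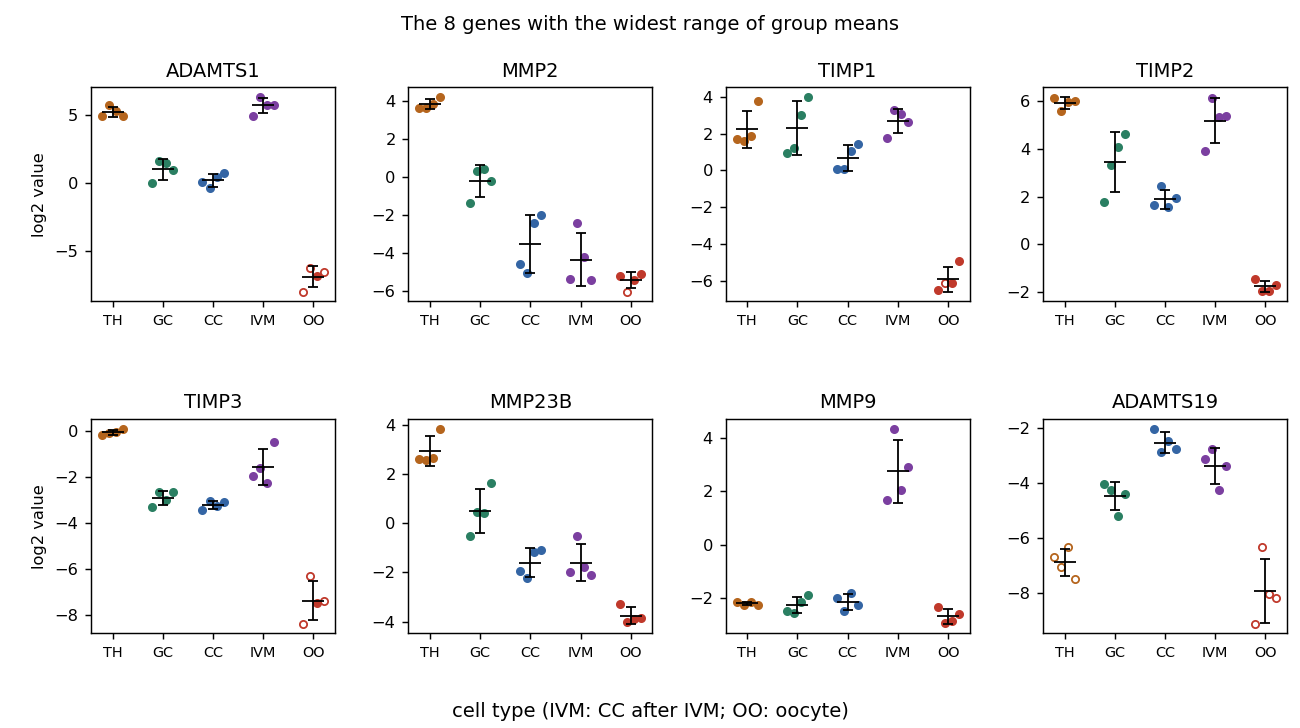
Log2 value on each array of the 8 genes with the widest range of group means, with the mean and SD of 4 arrays per group in black. Open circles mark arrays on which no probe was well above background, and the 4 arrays of CC after IVM (IVM) lie above all CC arrays for ADAMTS1, TIMP1, TIMP2, TIMP3, and MMP9.

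After IVM for 4 h, CC had higher levels of several enzymes and of 3 of the 4 inhibitors. Of the 39 genes, 20 differed from CC, 16 higher and 4 lower after IVM, against 45.8% of all genes (30.3% higher and 15.5% lower). Of the 20 genes above background in CC or in CC after IVM, 13 were called, 9 higher and 4 lower, against 45.3% of such genes (21.8% higher and 23.4% lower). The 9 genes were ADAMTS1, MMP9, MMP1, MMP19, TIMP2, TIMP1, TIMP3, MMP14, and MMP15, and the 4 were ADAMTS6, ADAMTS3, ADAMTS9, and ADAMTS7. The median difference of the 39 genes was 0.56, beside 0.37 over all genes. All arrays of CC after IVM lay on 1 slide that held no other group, so slide and culture cannot be told apart. Without CC replicate 1, 13 of the 39 genes were called, 10 higher and 3 lower, and the share over all genes for that fit is not reported here.

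ADAMTS1, which is known to be induced at ovulation, was at 4.96, 6.32, 5.78, and 5.78 after IVM. CC had 0.08, -0.38, 0.40, and 0.70, so that the lowest array after IVM was more than 4 units above the highest CC array. ADAMTS1 rose by 5.51 (SE 0.33, adjusted p = 6.05e-06), 45.5-fold. MMP9, gelatinase B, was at -2.02, -2.48, -1.80, and -2.28 in CC and at 1.69, 4.34, 2.05, and 2.90 after IVM. In TH, GC, and oocytes, MMP9 stayed within -2.92 to -1.89, so that no array of another group reached the values after IVM. The rise of MMP9 was 4.89 (SE 0.50, adjusted p = 9.25e-05), 29.6-fold. MMP1, interstitial collagenase, was at -6.32, -7.31, -6.47, and -7.14 in CC, where 3 arrays had a probe above background. After IVM it was at -4.10, -1.87, -2.66, and -2.50, above background on all 4 arrays, and the difference was 4.03 (SE 0.45, adjusted p = 1.42e-04). MMP19, an MMP of the basement membrane that is known to rise in follicles before ovulation, varied widely in CC, with -3.54, -4.31, -0.66, and -2.07. After IVM, MMP19 was at 0.32, 2.87, 1.76, and 0.48, above each CC array, and rose by 4.00 (SE 0.81, adjusted p = 0.00435). The CC arrays of slide 1 (replicates 1 and 2) were the lower pair.

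Of the inhibitors, TIMP1, TIMP2, and TIMP3 rose. TIMP2 was at 3.90, 6.12, 5.33, and 5.38 after IVM, with no overlap with CC, and rose by 3.29 (SE 0.43, adjusted p = 3.54e-04), 9.77-fold. TIMP1 was at 1.76, 3.28, 3.09, and 2.62 after IVM and rose by 2.02 (SE 0.41, adjusted p = 0.00466). TIMP3 was at -1.97, -1.63, -2.25, and -0.46 and rose by 1.63 (SE 0.36, adjusted p = 0.00638). TIMP4 was at -5.05 ± 0.35 after IVM and -5.18 ± 0.29 in CC, a difference of 0.13 that did not pass (adjusted p = 0.668). Among the membrane-type enzymes, MMP14 was higher by 1.62 (SE 0.59, adjusted p = 0.0473) and MMP15 by 0.62 (SE 0.20, adjusted p = 0.0325). Both calls were close to the threshold. That of MMP14 was lost without CC replicate 1 (1.87), 2 (1.49), or 4 (1.21) and without CC after IVM replicate 1 (1.72), 3 (1.32), or 4 (1.37). That of MMP15 was lost without any 1 CC array (0.54 to 0.67) and without CC after IVM replicate 2 (0.51). In a fit of single probes, probe 1 of MMP14 was called higher after IVM, by 2.43. Probe 2 of MMP14 was higher by 0.81 and was not called.

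ADAMTS6, higher in CC than in GC, was at -0.05, -0.38, -0.21, and -0.06 in CC and at -4.13, -2.39, -2.86, and -2.99 after IVM. It fell by 2.92 (SE 0.34, adjusted p = 1.76e-04), 7.54-fold, with no overlap. ADAMTS3 went from -2.45 ± 0.07 to -4.48 ± 0.99, a difference of -2.03 (SE 0.42, adjusted p = 0.00506). ADAMTS7, which cuts the same cartilage matrix protein as ADAMTS12, was lower, with a difference of -0.94 (SE 0.29, adjusted p = 0.0256). Leaving out CC replicate 1 (-0.97), 2 (-0.70), or 3 (-0.92) or CC after IVM replicate 1 (-0.90) or 3 (-0.88) ended that call, and with normexp it turned to 0.18. For ADAMTS9 (adjusted p = 0.0097), no array after IVM was above background, so the mean of -5.18 ± 0.43 in CC stood against -6.32 ± 0.36 after IVM with no fold, and the sign turned with normexp (0.38) and the deposited table (0.02). MMP2 (-0.84, adjusted p = 0.423), MMP23B (0.00, adjusted p = 0.998), and ADAMTS19 (-0.85, adjusted p = 0.0605) did not pass the test.

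The other 7 genes called higher after IVM were above background in neither group. They were ADAMTS8, ADAMTS5, MMP3, MMP7, ADAMTS12, MMP27, and MMP25, with differences of 0.64 to 1.51 beside the median of 0.37 over all genes. With quantile normalization, which brought that median to 0.01, 14 of the 39 genes were called, 10 higher and 4 lower, against 28.6% of all genes. With normexp the split was 32 higher and 2 lower, where 78.6% of all genes were called, and with the deposited values 27 higher and 3 lower, where 65.5% of all genes were. The call of ADAMTS12 was lost without CC replicate 3 (0.69), and that of MMP25 without CC replicate 1, 2, or 3 or CC after IVM replicate 2 or 4 (0.52 to 0.66). Leukocyte markers moved in part with the rises after IVM. CD14 went from -3.90 ± 1.26 (SD, n = 4) in CC to -1.57 ± 1.63 after IVM, CD68 from -2.89 ± 0.66 to -0.74 ± 0.55, and the summed level of the 6 markers was -2.36 to -0.53 over the CC arrays and -0.24 to 1.08 over those after IVM. PTPRC, the defining marker of leukocytes, was above background on no array of CC or of CC after IVM, and the part of such cells in the result was not tested.

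**Figure D4:**
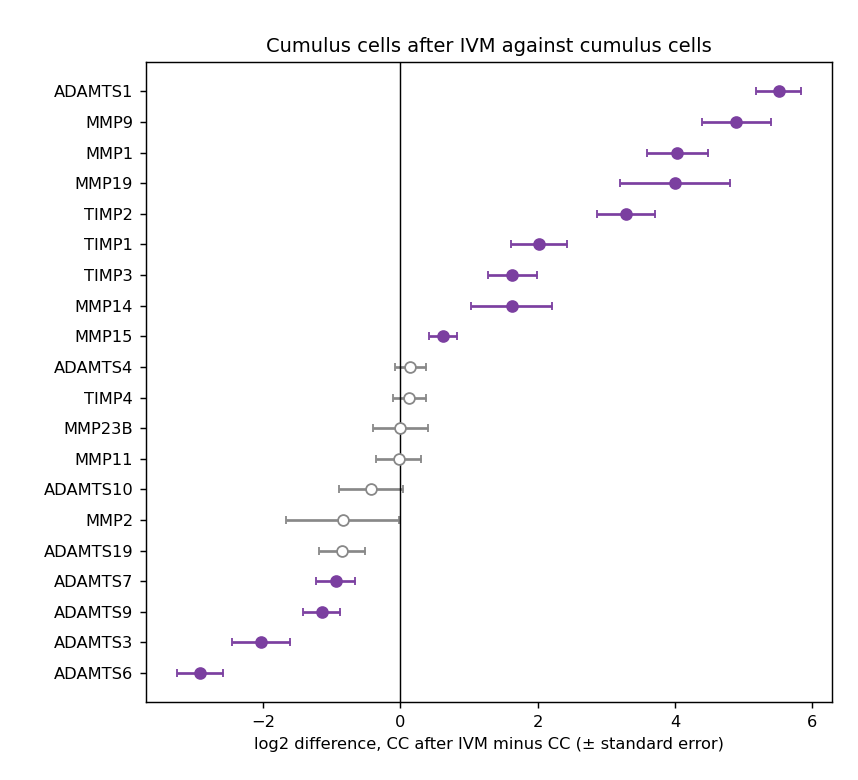
Log2 difference (± standard error) between CC after IVM and CC for the 20 genes above background in either group. Filled points (13) passed the adjusted p threshold of 0.05, 9 to the right and 4 to the left of 0, from 5.51 for ADAMTS1 to -2.92 for ADAMTS6.

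The levels of ADAMTS1, MMP9, and MMP1 after IVM can be set beside those of the cells taken directly. ADAMTS1 after IVM (5.71 ± 0.56) was near its level in TH (5.22 ± 0.39), and TIMP2 after IVM (5.18 ± 0.93) lay between GC (3.45 ± 1.25) and TH (5.93 ± 0.24). These pairs were not tested. In the cells taken directly, MMP9 did not differ by the F-test (adjusted p = 0.0827), nor did MMP1 (adjusted p = 0.345). MMP19 did (adjusted p = 0.021), with -0.50 ± 0.54 in TH and -3.55 ± 0.30 in oocytes, a difference of 3.05 (SE 0.83, adjusted p = 0.00436). The GC arrays of MMP19 spread over -3.69, -2.54, -1.21, and 0.78, and the TH arrays over -0.64, -1.12, -0.45, and 0.19.

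The remaining arrays of these genes complete the picture. MMP9 was at -2.14, -2.25, -2.16, and -2.26 in TH, at -2.47, -2.57, -2.13, and -1.89 in GC, and at -2.32, -2.92, -2.88, and -2.60 in oocytes. MMP1 was at -7.28, -7.48, -6.51, and -7.24 in TH, at -6.67, -7.16, -6.62, and -6.95 in GC, and at -8.37, -6.26, -8.44, and -7.08 in oocytes, where 0, 1, and 2 arrays were above background. All these arrays lay below every array of the same gene after IVM. MMP19 was at -3.52, -3.27, -3.98, and -3.43 in oocytes. MMP2 was at -5.35, -2.40, -4.22, and -5.39 after IVM, and MMP23B at -2.0, -0.51, -1.77, and -2.10 after IVM and -3.27, -4.00, -3.88, and -3.86 in oocytes. For MMP2 and MMP23B, all arrays other than those of TH and GC lay below 0. ADAMTS19 was at -6.69, -7.05, -6.32, and -7.48 in TH, -3.13, -2.75, -4.27, and -3.38 after IVM, and -9.11, -6.32, -8.03, and -8.18 in oocytes. ADAMTS6 was at -2.82, -2.85, -2.72, and -2.74 in TH, where its arrays spread least.

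Single probes showed how far the values of a gene depend on the part of the transcript that was read. For most of the genes that changed, the probes gave the same direction at different levels. Where probes overlap, these are not separate readings. TIMP2 probe 1 was at 4.56 ± 0.13 in CC and 7.92 ± 0.71 after IVM, and probe 2 was at -0.77 ± 0.83 and 2.44 ± 1.32. The probes of TIMP1 also lay apart, with 2.03 ± 0.75 and -0.70 ± 0.63 in CC, and both were lower in oocytes, at -5.07 ± 0.54 and -7.10 ± 1.22. MMP1 had 4 probes for 2 neighbouring transcripts. Probes 3 and 4, which share 23 bases and read the transcript at chr15:6132915-6141309, were at -0.52 ± 1.24 and -0.86 ± 1.12 after IVM, above background on all 4 arrays. Probes 1 and 2, printed above, read the other transcript and were at -5.23 ± 0.74 and -4.92 ± 1.06, above background on 1 and 2 arrays. In CC, probe 4 alone was above background, on 3 arrays.

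For MMP11, stromelysin-3, the probes went opposite ways between oocytes and CC. MMP11 probe 1 was at -1.74 ± 1.27 in oocytes and -7.06 ± 0.85 in CC, where it was above background on no array. Probe 2 of MMP11 was at -4.45 ± 0.42 in oocytes and -3.45 ± 0.26 in CC. In a fit of single probes, probe 1 was called higher in oocytes (adjusted p = 3.21e-06), with no fold given because no CC array measured it, and probe 2 lower, with a difference of -1.001 (SE 0.24, adjusted p = 0.00174). The value of the gene over both probes, 2.16, therefore stands for neither. ADAMTS4 and ADAMTS10 each had a probe that read little. ADAMTS4 probe 2 was above background on 3 oocyte arrays (-3.82 ± 1.13) and on no array of CC (-7.20 ± 0.96), whereas probe 1 was at -3.22 ± 0.86 and -4.18 ± 0.36. ADAMTS10 probe 2 was above background on 1 TH array only. MMP17, a membrane-type MMP, had means of -5.50 ± 1.02 in GC and -7.99 ± 1.25 in oocytes, at least 1.32-fold apart (adjusted p = 0.0018). After IVM, 1 of the 4 MMP17 probes, which hold 2 sequences, was called higher and 1 lower than in CC. MMP17 was above background on 1 CC array and no array after IVM, so these calls compare signals near background. The brightest probe alone gave MMP11 -1.001 in oocytes against CC, and after IVM -0.11 for ADAMTS12 and -0.49 for MMP25.

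**Figure D5:**
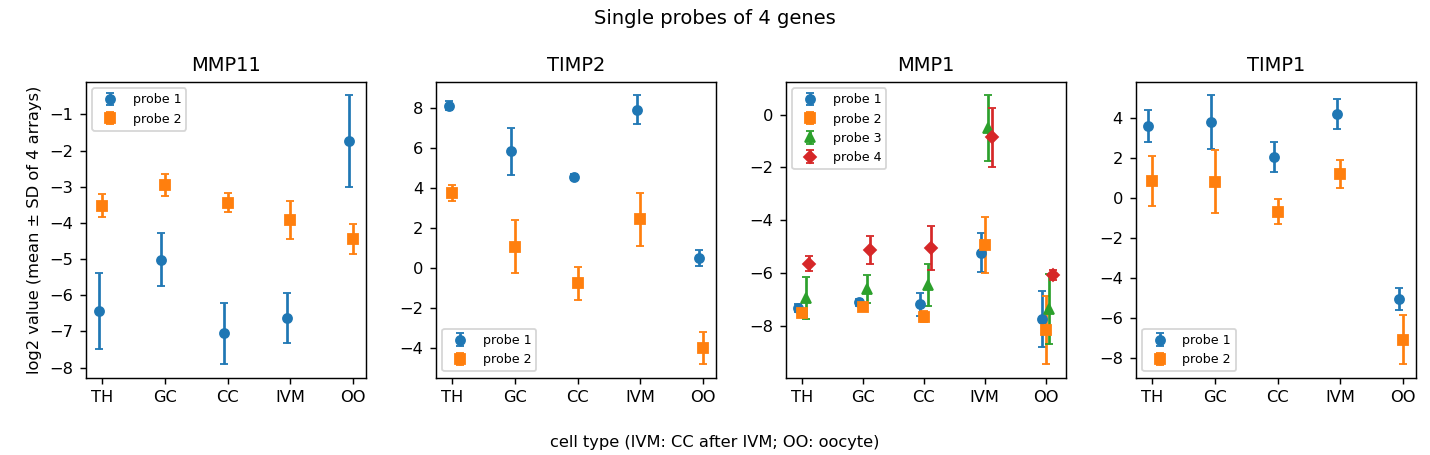
Log2 value (mean ± SD of 4 arrays) of the single probes of MMP11, TIMP2, MMP1, and TIMP1 in each group. The probes of TIMP1 and TIMP2 keep their order in each group, whereas those of MMP11 cross between CC and oocytes and those of MMP1 part after IVM.

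The neighbours of these enzymes in the pathway were read from a list of 40 genes (ADAMTS-like proteins, ADAMs, plasminogen activators and their inhibitors, proteoglycans, and hyaluronan-binding proteins), of which 37 were found on the array by name. TH and GC differed in 16 of the 37, 9 higher and 7 lower in TH, CC and GC in 9 (5 and 4), oocytes and CC in 28 (9 and 19), and CC after IVM and CC in 22 (19 and 3), beside the shares over all genes given above for each comparison. In TH, TFPI2, an inhibitor of serine proteinases, was higher than in GC by 5.75 (SE 0.46, adjusted p = 2.81e-07), and A2M, the plasma inhibitor that traps most proteinases, by 4.48 (SE 0.58, adjusted p = 2.91e-05). VCAN, the proteoglycan versican that ADAMTS1 cuts, went the other way from ADAMTS1, with a difference between TH and GC of -3.16 (SE 0.23, adjusted p = 9.13e-08). After IVM, HAS2, which makes the hyaluronan of the expanding cumulus, was above background on 2 CC arrays and all 4 arrays after IVM and rose by 7.76 (SE 0.40, adjusted p = 3.33e-06), PLAUR, the receptor of urokinase, by 4.91 (SE 0.65, adjusted p = 3.87e-04), and PGR, the progesterone receptor, by 4.84 (SE 0.29, adjusted p = 6.36e-06). VCAN, named here as the substrate after its values were seen, differed by 0.30 (SE 0.42, adjusted p = 0.58) after IVM, which did not pass. In oocytes, PLG, plasminogen, was above background on all 4 arrays, against 1 CC array, and was higher by 7.12 (SE 0.41, adjusted p = 2.98e-10), and THBS1, a matrix protein that shares its repeats with the ADAMTS family, was lower, with a difference of -6.26 (SE 0.28, adjusted p = 2.07e-11).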

How the data were processed

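Total RNA (200 ng per array) was labelled with Cy3 and hybridized in 1 colour. Scanner files of the single arrays, deposited by the authors, hold an intensity per spot (Agilent Feature Extraction 10.7.3.1) from which the software had taken the background, with no scaling between arrays. Probes are placed on the UMD 3.1 build. They also deposited a table of log2 values, which equalled log2 of the median pixel signal minus the array median within 5.0e-09.

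Control spots and outlier spots were left out, the 75th percentile over the 61325 non-control probes was subtracted from log2 processed signal, and the median over the spots of a gene was taken, the last step following the methods of the study. A gene name was missing for 9779 probes, of which 734 were matched by accession to RefSeq genes. Among these are 4 probes of ADAMTS20, which the rule on names leaves out. The linear models used limma 3.58.1 (lmFit, eBayes) under R 4.3.3, with data.table (version 1.17.8) and Benjamini–Hochberg adjustment over all 22550 genes and a threshold of 0.05. The F-test and the pairs of TH, GC, CC, and oocytes used 16 arrays, and CC after IVM against CC used 8. Python 3.11.15 (pandas 2.3.3, numpy 2.4.6, matplotlib 3.10.9) drew the figures.

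The members, the lists, and the rule for the genes given with values were chosen with earlier results of these arrays known. Values are given for each gene called by the F-test or after IVM and above background in at least 1 group (26 genes), and the values of all arrays for the 8 with the widest range of group means and the 6 that changed most after IVM. The list of related genes and the markers of cell types served as descriptions only. ADAMTSL5, ADAM9, and TNFAIP6 were not found by name. Replicate numbers were checked as pairs over 9536 genes above background on all arrays. Deviations of same-numbered TH and GC arrays correlated at 0.20 to 0.44, and in all 4 pairs the best match had the same number. These numbers pair the samples by that check, although the labels do not say so. Same-numbered TH and GC arrays also lay on the same slide, and its part in these correlations was not tested. The main fit did not use the pairing. For CC and GC the deviations correlated at 0.02 to 0.19, and for oocytes and CC at -0.21 to 0.18. For CC after IVM and CC they correlated at -0.22 to -0.03. The fit was also run on simulated data, with an outcome that is not reported here and is not used as evidence. The number of arrays limits the precision.

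Alternatives were centring on the array median, quantile normalization, a percentile over those probes that every array detected, normexp (offset 50), the log2 table as deposited, spot means, the brightest probe, leaving out dim genes, 1 fit of all 20 arrays, the replicate number and the slide as a block, each slide alone, arrayWeights, eBayes with trend and robust options, the analysis of variance of the methods, and leaving out each array.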

Additional observations from a re-analysis of the deposited data

Results flagged for a closer look

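Among 130 sets of 4 arrays (26 genes in 5 groups), 4 had 1 array far from the other 3 by Dixon's criterion at the 95% level. About 1 in 20 sets is expected to pass it by chance, so 4 is fewer than chance gives. TIMP1 in TH was at 3.76 on replicate 4, against 1.60 to 1.89 on the other arrays. MMP23B in TH was at 3.83 on replicate 4, against 2.59 to 2.64. ADAMTS9 in GC was at -7.05 on replicate 3, against -6.23 to -6.07, with no array above background. ADAMTS4 in CC was at -5.16 on replicate 2, against -5.95 to -5.82.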

How the results depend on the processing

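The count of genes called between TH and GC (14) was 8 with normexp, 8 on slide 1 alone, and 8 on slide 2 alone. Between CC and GC (6), it was 2 on slide 1, 2 on slide 2, and 10 with arrayWeights. Between oocytes and CC (22), it was 35 with normexp (1 higher and 34 lower), 35 with the deposited table, and 34 with arrayWeights. After IVM (20), it was 34 with normexp (32 higher and 2 lower) and 13 with a filter on dim genes. The cause was not tested, except that the filter tests fewer genes and a single slide has fewer arrays. Counts given here stand without the share of all genes called at the same setting. They therefore do not show whether the members moved apart from the rest of the array. Leaving out 1 array at a time gave 25 to 38 genes for the F-test (27), 11 to 17 for TH against GC, 5 to 8 for CC against GC, 19 to 33 for oocytes against CC, and 13 to 22 after IVM, where the 13 came without CC replicate 1. The counts of 38, 17, 8, and 33 came without oocyte replicate 2. No slide held both CC and CC after IVM, so that comparison has no value within a slide. The slide as a random block gave 28, but with no shared slide it cannot separate slide from culture. With the replicate block, the counts were 27, 15, 7, 24, and, after IVM, 14, where the numbers do not pair the samples by the check and the calls of ADAMTS12, ADAMTS7, MMP15, and MMP25 were lost. No other of the called differences followed for named genes was lost with that block. Calls gained with it were not followed by gene. Of the differences of named genes over all alternatives, 1389 kept their direction and side of the threshold, 113 lost the call, and 9 turned. The 9 were ADAMTS12 (-0.72) and MMP25 (-0.95) in oocytes against CC and ADAMTS7 (0.18) and ADAMTS9 (0.38) after IVM with normexp, MMP25 in oocytes against CC (-0.23) and ADAMTS9 after IVM (0.0171) with the deposited table, and MMP11 in oocytes against CC (-1.001), ADAMTS12 after IVM (-0.11), and MMP25 after IVM (-0.49) with the brightest probe. Signal over background limits the dim genes, and only a bound or no fold is given against a group in which no array measured the gene.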
